A study of Mus musculus with 12 samples.

Results

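The 10 DNA methylation writers and erasers were taken by gene symbol from both deposited results tables of the series, and all 10 were found in each. They are Dnmt1, Dnmt3a, Dnmt3b, Dnmt3l, Uhrf1, Tet1, Tet2, Tet3, Tdg and Zfp57, out of 45706 genes listed in the blastocyst table and 13009 in the embryonic stem (ES) cell table. All 10 were among the 15209 and 10739 genes that carry an adjusted p-value there. The series compared mouse material labelled Dis3L KO with material labelled Dis3L WT. The Dis3l protein is a ribonuclease of the RNA exosome in the cytoplasm. The 4 groups were knockout blastocysts, wild-type blastocysts, knockout ES cells and wild-type ES cells, with 3 samples each in the labels. Blastocysts, the embryo stage before implantation, were obtained from superovulated females 96 hours after hCG injection, and each library came from a single embryo. ES cells are cultured pluripotent cells derived from blastocysts. The lines were derived and grown on inactivated mouse embryonic fibroblasts with LIF, so fibroblast RNA may be present in those libraries. The strain, the knockout allele, and whether ES samples are separate lines are not given in the sources used here, so the p-values measure only the spread between these samples.

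Cytosine methylation at CpG dinucleotides is laid down and removed by separate enzymes. Dnmt3a and Dnmt3b are the de novo methyltransferases, and Dnmt3l is their catalytically inactive partner. Dnmt1 copies the mark to the daughter strand after replication, guided by Uhrf1, which binds hemimethylated CpG. Tet1, Tet2 and Tet3 are dioxygenases that oxidise methylated cytosine, and Tdg is the glycosylase that excises the more oxidised forms for base excision repair. Zfp57 is a zinc finger protein that binds the methylated allele of imprinting control regions and protects its methylation. The mark is largely erased in the cleavage embryo, is low in the blastocyst and is laid down again around implantation.

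CpG is also the sequence these proteins act on, and the members' own promoters differ widely in it. RefSeq start sites on GRCm38.p6 were found for all 10 members, with 19 starts between them. Within the 250 bases before each start the number of CpG ranged from 2 to 51, against a median of 6 over 32851 windows of the same length, of which 92.1% hold at least 1 CpG. The motif searched was CG, which reads the same on both strands. Only 3 windows are shown because they belong to the members on which the later comparisons turn, each at the most upstream start whose window lies clear of the gene's annotated exons. Tet2 was the most even member between blastocyst libraries, Zfp57 the least even, and Dnmt3l was the only member with an unadjusted p-value under 0.05. CpG is in capitals, and each sequence reads in the direction of transcription. The Tet2 window is chr3:133544391-133544640 on the minus strand, the Zfp57 window is chr17:37000913-37001162 on the plus strand, and the Dnmt3l window is chr10:78049592-78049841 on the plus strand.
Tet2: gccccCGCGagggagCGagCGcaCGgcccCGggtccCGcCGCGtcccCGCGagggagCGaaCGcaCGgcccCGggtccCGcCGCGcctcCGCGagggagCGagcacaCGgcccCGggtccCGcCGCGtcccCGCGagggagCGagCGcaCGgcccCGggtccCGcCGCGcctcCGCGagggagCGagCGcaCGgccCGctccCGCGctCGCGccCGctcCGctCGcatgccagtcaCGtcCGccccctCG
Zfp57: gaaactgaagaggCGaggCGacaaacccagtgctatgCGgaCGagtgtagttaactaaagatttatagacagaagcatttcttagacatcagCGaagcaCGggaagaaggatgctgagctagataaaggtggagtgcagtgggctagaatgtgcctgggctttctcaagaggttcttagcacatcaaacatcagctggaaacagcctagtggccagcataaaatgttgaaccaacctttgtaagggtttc
Dnmt3l: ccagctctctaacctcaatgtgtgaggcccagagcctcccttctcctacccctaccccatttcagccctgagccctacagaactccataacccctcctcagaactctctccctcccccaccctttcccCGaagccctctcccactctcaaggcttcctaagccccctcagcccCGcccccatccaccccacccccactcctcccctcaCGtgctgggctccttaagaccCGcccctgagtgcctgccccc
The Tet2 window holds 51 CpG, more than 99.9% of all windows, and the Zfp57 and Dnmt3l windows hold 6 and 4. Whether promoter sequence bears on any expression value was not tested.

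Neither table gives a value per sample, so reads were recovered from the authors' means. A deposited mean adds up whole reads weighted by the depth of their count column, so it was solved for the reads in every column. The blastocyst table was made from 6 count columns and the ES cell table from 4. Columns whose reads go with positive fold changes are called positive columns, and the others negative columns. Columns are numbered within a side only to name them. Neither the labels nor the headers say which side is the knockout, so all signs are given as deposited and no column is assigned to a genotype. The positive side may be a different genotype in each table, so signs cannot be compared between blastocysts and ES cells. Reads in the solved genes numbered 1030933 to 2426724 per blastocyst column and 1048860 to 1737742 per ES cell column. Of the nonzero reads per gene and column, 4.11% were odd numbers in blastocysts and 50.2% in ES cells. The cause was not tested, but blastocyst reads may have been counted in pairs. A printed blastocyst read number may then be about double the number of separate fragments, with more counting error than the number alone gives. Values below are reads divided by the column's size factor, called normalised reads, and they compare columns within a table only. Intervals on fold changes are the authors' estimate with 1.96 standard errors on each side, and ES cell fold changes are shrunken towards 0, which makes them smaller than the ratio of the reads.

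Columns of the sides lay apart for the targeted gene in ES cells, as for 40.3% of all solved genes there. They overlapped for it in blastocysts, where 9.94% of all solved genes lay apart. Dis3l had 14 and 8 reads in the positive columns of the ES cell table and 39 and 39 in the negative columns. In blastocysts it had 26, 8 and 0 reads in the positive columns and 10, 4 and 8 in the negative columns, so few that the blastocyst labels could not be checked with it. The authors' deposited tables give Dis3l a log2 fold change of −0.88 (standard error 0.33, adjusted p = 0.445) in ES cells and 0.28 (standard error 1.91, adjusted p = 0.997) in blastocysts. Markers of pluripotent cells were present in every column, with 8 of 8 genes above 0. Their summed normalised reads ran from 2410 to 3689 in embryos and from 3652 to 5686 in ES cells. Of 10 fibroblast markers, 9 or 10 were above 0 in each ES cell column, with sums from 1629 to 3179. Most of that sum is Fn1 and Vim (means 1105 and 542 in ES cells), so it was not read as an amount of fibroblast RNA.

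None of the 10 members was called in either material. At the authors' adjusted p-value under 0.05, from the Wald test of DESeq2, 0 of 10 passed in blastocysts, where 0.0986% of all tested genes did. In ES cells 0 of 10 passed, where 0.261% of tested genes did. At an unadjusted p-value under 0.05 the members numbered 0 in blastocysts (background 6.21%) and 1 in ES cells (background 5.62%), which was Dnmt3l. The columns of the 2 sides lay apart for 0 of 10 members in blastocysts, against 9.94% of all solved genes. They lay apart for 1 of 10 in ES cells, again Dnmt3l, against 40.3% of all solved genes, with only 2 columns on each side.

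**Figure D1:**
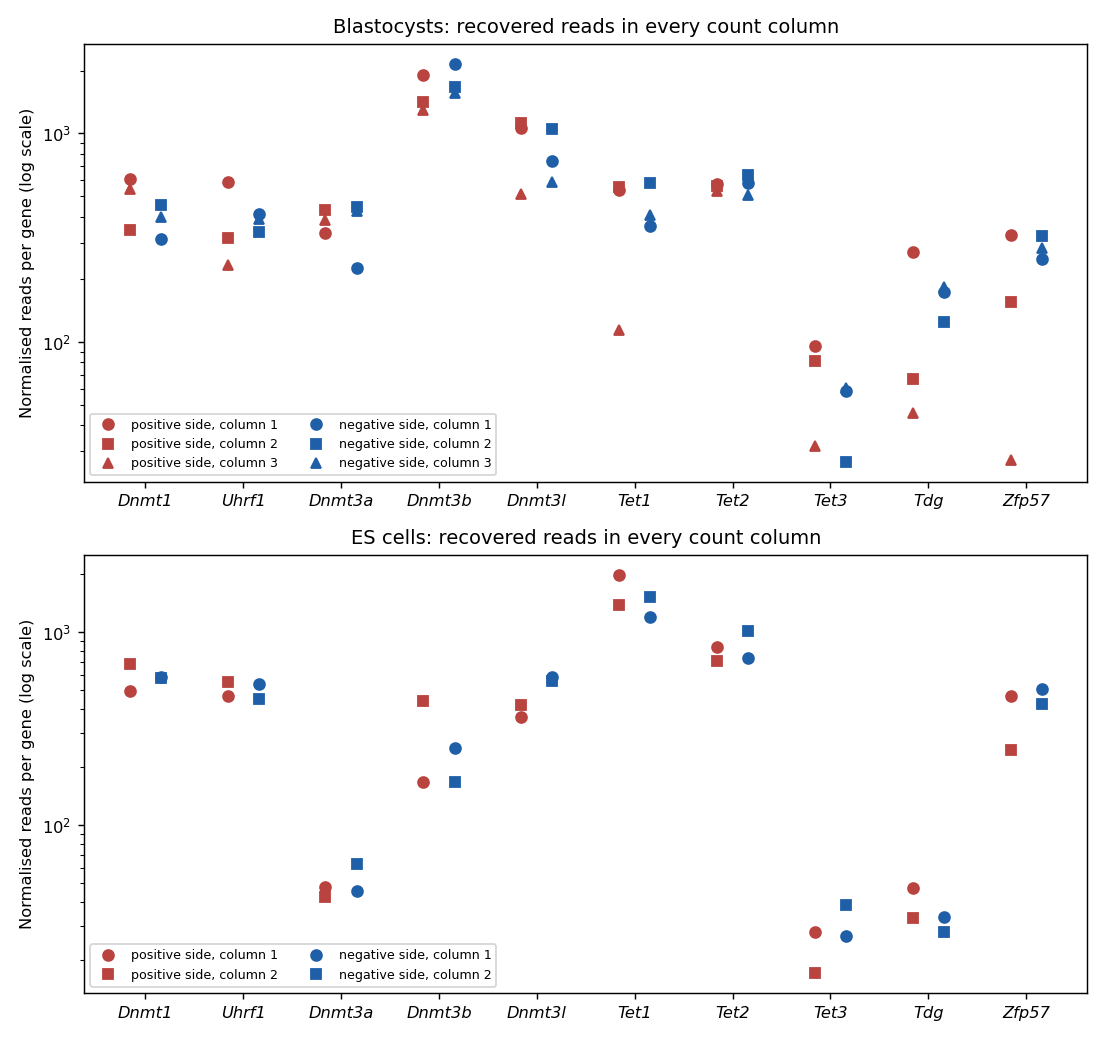
Normalised reads (log scale) of the 10 members in each count column of the blastocyst table (top) and the ES cell table (bottom), with the positive side in red and the negative side in blue. Every member's sides overlap in blastocysts, and in ES cells only those of Dnmt3l lie apart.

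Among the maintenance genes, Dnmt1 (ENSMUSG00000004099, chr9:20907206-20959888) had 605, 343 and 544 normalised reads in the positive columns of the blastocyst table. It had 312, 453 and 400 in the negative columns. The sides overlapped, although the highest 2 columns were both positive. The authors' deposited table gives Dnmt1 a log2 fold change of 0.36 there (standard error 0.36, interval −0.35 to 1.07, adjusted p = 0.836). In ES cells Dnmt1 had 493 and 683 normalised reads against 583 and 579, so both negative-side columns fell between the positive ones. Its ES cell fold change in the authors' deposited table was 0.01 on the log2 scale (interval −0.43 to 0.45).

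Uhrf1 (ENSMUSG00000001228, chr17:56303321-56323486), the guide of Dnmt1, had 588, 317 and 233 normalised reads in the positive columns in blastocysts and 413, 336 and 391 in the negative columns. The positive side held both its highest and its lowest column. With a blastocyst interval of −0.81 to 0.81, the authors' deposited table does not limit the log2 change of Uhrf1 to either sign. In ES cells Uhrf1 was the most even member, with 468 and 549 normalised reads against 536 and 451, a range of 1.22-fold. The interval of its ES cell fold change in the authors' deposited table was −0.40 to 0.47, about as narrow as that of Dnmt1.

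In blastocysts the de novo genes Dnmt3b and Dnmt3l had the highest levels of the group per kilobase of exon, and in ES cells Dnmt3l did. Dnmt3b (ENSMUSG00000027478, chr2:153649450-153687730) had 1912, 1413 and 1302 normalised reads in the positive columns in blastocysts and 2153, 1660 and 1565 in the negative columns. All 6 columns lay within 1.65-fold of each other. The authors' deposited table gives Dnmt3b a log2 fold change of −0.22 in blastocysts (standard error 0.28, interval −0.76 to 0.32). In ES cells the same gene was uneven, with 168 and 441 normalised reads in the positive columns and 249 and 166 in the negative columns. Positive-side column 2 alone was high, and the spread over the columns exceeded that of 97.4% of the 1528 solved genes with a like mean, taken as within 1.5 times. The ES cell fold change of Dnmt3b in the authors' deposited table was 0.26 (standard error 0.33, adjusted p = 1.00).

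Dnmt3a (ENSMUSG00000020661, chr12:3806007-3914443) had 333, 430 and 386 normalised reads against 228, 446 and 423 in blastocysts. Its columns overlapped throughout, and the authors' deposited table gives a log2 fold change of 0.07 (interval −0.68 to 0.82). In ES cells Dnmt3a had 60 and 32 reads in the positive columns and 48 and 65 in the negative columns, so counting error is large there. The log2 fold change of Dnmt3a in ES cells was −0.17 in the authors' deposited table (standard error 0.31).

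Dnmt3l (ENSMUSG00000000730, chr10:78041947-78063622), the cofactor without catalytic activity, was the member with the clearest separation of sides. It had 454 and 318 reads in the positive columns of the ES cell table and 614 and 578 in the negative columns, which are 362 and 419 against 584 and 559 normalised reads. Both positive-side columns were lower than both negative-side columns. The authors' deposited table gives a log2 fold change of −0.48 (standard error 0.22, interval −0.91 to −0.06, unadjusted p = 0.0260, adjusted p = 0.731), and the ratio of the recovered reads was −0.55. After adjustment over all tested genes Dnmt3l did not pass. The summed pluripotency markers were also lower on that side, at 5089 and 3652 against 5350 and 5686, and their part in the Dnmt3l values was not tested. In blastocysts Dnmt3l had 1066, 1125 and 511.9 normalised reads against 735, 1050 and 587, with the sides overlapping. There the authors' deposited table gives a log2 fold change of 0.19 (interval −0.53 to 0.91). Its sign cannot be set against that in ES cells, because the positive sides may be different genotypes, and whether the materials differ was not tested.

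**Figure D2:**
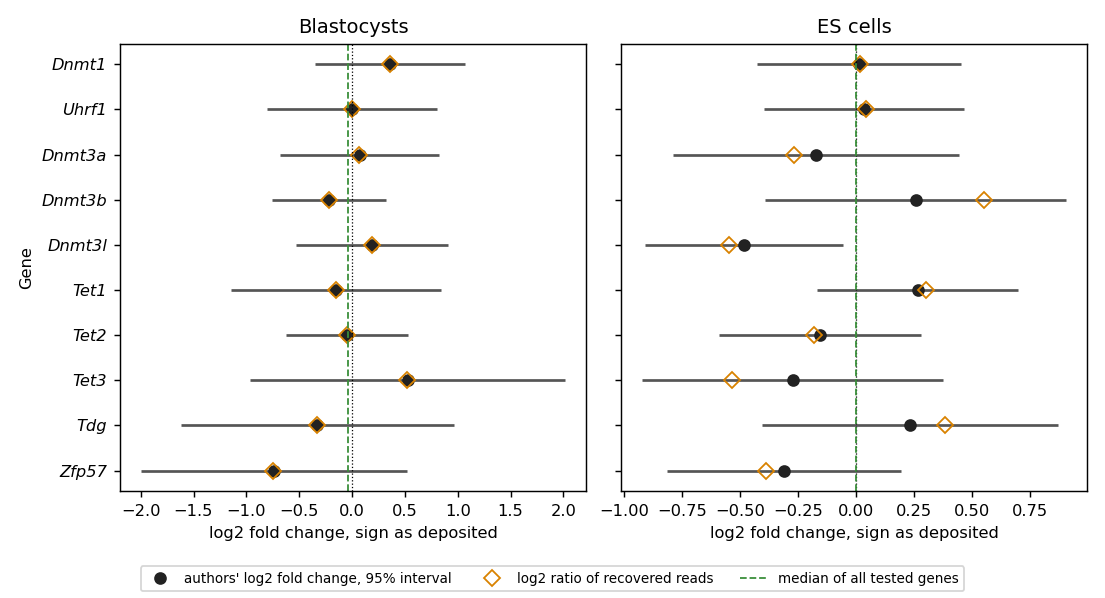
Authors' log2 fold change of each member with its 95% interval (black), the log2 ratio of recovered reads (orange diamonds) and the median of all tested genes (green dashes), in blastocysts (left) and ES cells (right, narrower axis). All 10 blastocyst intervals cross 0, and in ES cells only the interval of Dnmt3l, −0.91 to −0.06, does not.

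The TET dioxygenases differed from each other in how even they were between embryos. Tet2 (ENSMUSG00000040943, chr3:133463679-133545139) had 570, 562 and 530 normalised reads in the positive columns in blastocysts and 580, 631 and 509 in the negative columns. The 6 columns spanned 1.24-fold, and only 1.07% of the 937 solved genes with a like mean spanned less. Outside the listed genes, that set holds no gene with a mean above 700. The authors' deposited table gives Tet2 a log2 fold change of −0.05 (standard error 0.29, interval −0.63 to 0.53). In ES cells Tet2 had 840 and 703 normalised reads against 730 and 1017, a fold change of −0.15 in the authors' deposited table (interval −0.59 to 0.28).

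Tet1 (ENSMUSG00000047146, chr10:62804570-62899118) had 538, 554 and 114 normalised reads in the positive columns in blastocysts and 360, 578 and 406 in the negative columns. Positive-side column 3 stood apart at 114, and the span of 5.05-fold was wider than for 93.1% of 1446 genes with a like mean. The log2 fold change of Tet1 was −0.15 in the authors' deposited table (standard error 0.50, interval −1.14 to 0.84), and the log2 ratio of its reads was 0.29 without that column. Tet1 had the most reads of any member in ES cells, 1968 and 1385 normalised reads against 1201 and 1515. Those columns alternated between the sides, and the authors' deposited table gives 0.27 (interval −0.17 to 0.70).

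Tet3 (ENSMUSG00000034832, chr6:83362373-83459084) was scarce in both materials, with 134, 80 and 28 reads against 94, 24 and 42 in blastocysts and 35 and 13 against 28 and 40 in ES cells. Its blastocyst interval in the authors' deposited table, −0.96 to 2.02 on the log2 scale, was the widest of the 10. In ES cells the fold change of Tet3 was −0.27 (interval −0.92 to 0.38) in the authors' deposited table.

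Tdg (ENSMUSG00000034674, chr10:82629828-82650799), which acts after the TET enzymes, had 270, 67.0 and 45.7 normalised reads in the positive columns in blastocysts and 173, 125 and 184 in the negative columns. The positive side held the highest column and the lowest 2. The authors' deposited table gives Tdg −0.33 (standard error 0.66, interval −1.62 to 0.96). That value depended on single columns, and the log2 ratio of the reads was −1.51 without positive-side column 1 and 0.07 without positive-side column 3. In ES cells only 25 to 59 reads of Tdg were found per column, and the log2 fold change in the authors' deposited table was 0.23 (interval −0.40 to 0.87).

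Zfp57 (ENSMUSG00000036036, chr17:37001163-37010635), the imprint reader, had the most negative blastocyst estimate of the 10. It had 458, 154 and 24 reads in the positive columns and 404, 290 and 196 in the negative columns, which are 327, 156 and 27.4 against 250, 323 and 282 normalised reads. Positive-side column 3 was far below the rest, while positive-side column 1 was the highest of all. The span was 11.9-fold, wider than for 96.6% of 2209 genes with a like mean. The log2 fold change in the authors' deposited table was −0.74 (standard error 0.64, interval −2.0 to 0.52, adjusted p = 0.811). From the recovered reads the log2 ratio was −0.74 with all columns, −0.24 without positive-side column 3 and −1.63 without positive-side column 1. In ES cells Zfp57 had 465 and 244 normalised reads against 505 and 423, with positive-side column 2 low. The ES cell fold change of Zfp57 was −0.31 (interval −0.82 to 0.20) in the authors' deposited table, and the log2 ratio of its reads was −0.39, or 0.00 without positive-side column 2.

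A single blastocyst column held many of the lowest values. Positive-side column 3 held the lowest value of 6 of the 10 members, Uhrf1, Dnmt3b, Dnmt3l, Tet1, Tdg and Zfp57, whereas it held the lowest value of 21.1% of the 6674 solved genes with a mean of at least 50. The median member lay 0.71 log2 units below its own median over the columns there, against −0.01 for those 6674 genes. Only Dnmt1, at 544, lay above its own median there, while Dnmt3a, at 386, and Tet2, at 530, lay close to theirs. In the same column Nanog, a transcription factor of the epiblast and a listed TET partner, had 8 reads against 64 to 838 in the others. Pou5f1, which encodes the pluripotency factor Oct4, had 99.4 normalised reads there against 131 to 515. These 2 are the pluripotency markers with an unadjusted p-value under 0.05 in the authors' Wald test. Over the 8 pluripotency markers the authors' log2 fold changes are 3 positive and 5 negative, with a median of −0.16. Tfcp2l1, the most abundant of the 8 (mean 1620), has 0.02, and Sox2, Esrrb and Zfp42 have 0.03, 0.00 and −0.05. Sums of the solved pluripotency, primitive endoderm and fibroblast markers were all lowest in positive-side column 3, for pluripotency and primitive endoderm by little. The primitive endoderm sum lacks Dab2 and Lama1, the most abundant of its list (means 3406 and 3760). The 8 pluripotency markers summed to 2410 (against 2551 to 3689 in the others), 6 solved primitive endoderm markers of 8 to 2569 (against 2581 to 4439), and 4 solved fibroblast markers of 10 to 329 (against 595 to 1493), with 1 of those 4 above 0. The other 6 fibroblast genes, among them Col1a1 and Dcn, are listed at 0 in the blastocyst table. Most of the fibroblast sum is Fn1 (mean 912), so in embryos it does not measure fibroblasts. For trophectoderm, 5 solved markers of 8 summed to the highest value (5623 against 3240 to 5103), but that sum lacks Krt8, Krt18 and Gata3, whose reads per column were not solved. Krt18 and Krt8 are keratins of the trophectoderm and the most abundant of the 8. Their log2 fold changes in the authors' deposited table are −0.63 and −0.87 (adjusted p = 0.744 and 0.641). Gata3 has 0.52 there (adjusted p = 0.769), and of all 8 markers 5 are positive and 3 negative. The trophectoderm level of this column is thus not known from the sum. Reads of the Y-linked gene Uty, looked up after its values were known, numbered 0, 74 and 78 in the positive columns and 0, 0 and 22 in the negative columns. The part of cell make-up, embryo sex or library quality in the low values was not tested, and in whole embryos fewer cells of a type and less RNA per cell cannot be told apart.

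**Figure D3:**
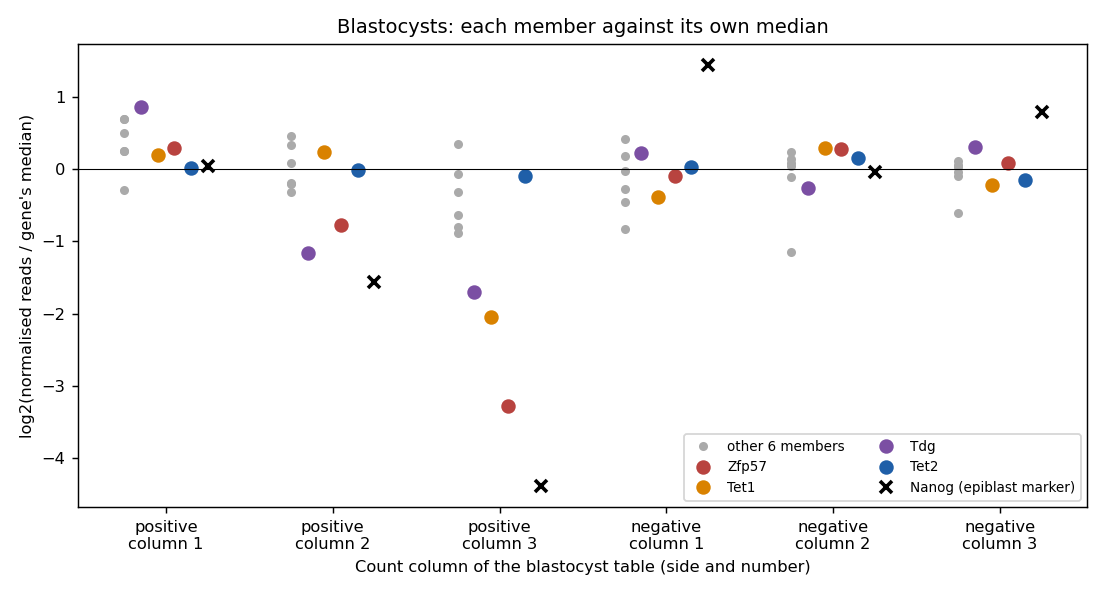
Normalised reads of each member in each blastocyst count column relative to the gene's own median over the 6 columns (log2), with Zfp57, Tet1, Tdg and Tet2 in colour, the other 6 members in grey and Nanog as crosses. In positive-side column 3 Zfp57, Tet1, Tdg and Nanog lie far below their medians while Tet2 does not.

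In ES cells, positive-side column 2 was high for Dnmt3b (441 against 166 to 249) and low for Zfp57 (244 against 423 to 505). The span of Zfp57 over the ES cell columns exceeded that of 93.5% of 897 genes with a like mean. Dnmt1 and Uhrf1 were also highest in positive-side column 2, Tet1 and Tdg in positive-side column 1, and Dnmt3a, Tet2 and Tet3 in negative-side column 2. Positive-side column 2 held the lowest value of 4 of the 10 members, against 25.1% of the 6081 solved genes with a mean of at least 50. The median member there deviated by −0.11 log2 units from its own median, against 0.00 for those genes. This column also had the lowest summed pluripotency markers, 3652, and the lowest summed fibroblast markers, 1629, a sum that is mostly Fn1 and Vim. It held 500 reads of Uty, against 4, 52 and 8 in the other ES cell columns. The part of these differences in the Dnmt3b and Zfp57 values was not tested.

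Levels of different genes were compared per kilobase of exon (GENCODE M21 on GRCm38). The length joins all annotated exons of a gene, from 2988 bases for Dnmt3l to 16870 for Tet2, and may exceed that of the transcripts present. The order depends on it, as Dnmt3a (16642 bases) and Uhrf1 (4259 bases) had near-equal blastocyst means, 374 and 380, before this division. In blastocysts the order of mean normalised reads per kb was Dnmt3b (327), Dnmt3l (283), Uhrf1 (89.1), Zfp57 (60.1), Dnmt1 (60.02), Tet2 (33.4), Tet1 (27.5), Tdg (26.8), Dnmt3a (22.5) and Tet3 (3.54). Neighbours did not overlap between columns at 3 steps of this order, those from Dnmt3l to Uhrf1, from Dnmt1 to Tet2 and from Dnmt3a to Tet3. The other neighbours overlapped. Dnmt3b and Dnmt3l thus stood above the rest, at percentiles 97.5 and 97.1 of the tested genes.

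In ES cells the order per kb was Dnmt3l (161), Uhrf1 (118), Zfp57 (108), Tet1 (98.2), Dnmt1 (79.2), Dnmt3b (50.1), Tet2 (48.8), Tdg (6.57), Dnmt3a (2.98) and Tet3 (1.65). The first 7 overlapped with their neighbours, and the steps from Tet2 to Tdg, from Tdg to Dnmt3a and from Dnmt3a to Tet3 did not overlap. The tables were normalised separately and came from different library protocols, so levels were set side by side only as percentiles among each table's tested genes. By that measure Dnmt3a stood at 61.0 in blastocysts and 8.21 in ES cells, Tdg at 65.1 and 25.6, and Tet3 at 24.1 and 2.07. Tet1 stood at 65.6 in blastocysts and 94.4 in ES cells. Dnmt3l, the highest ES cell member, stood near the top in both, at 97.1 and 97.2. The ranking covered 15153 genes in blastocysts and only 10729 in ES cells. A smaller set with fewer low genes lowers a percentile by itself, and its part in these differences was not tested.

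**Figure D4:**
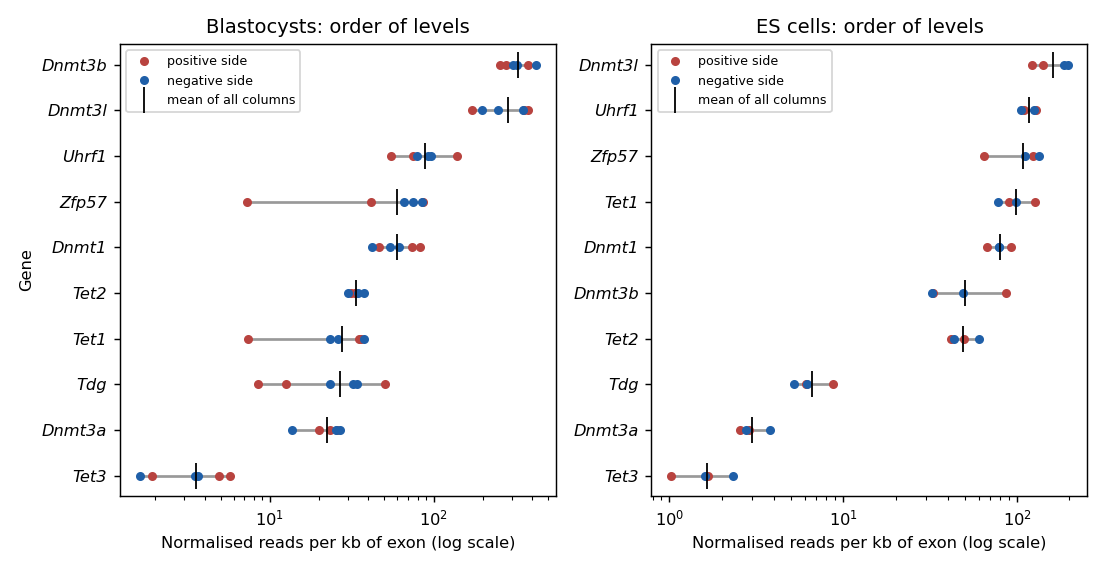
Normalised reads per kb of exon (log scale) of each member in every count column, with the mean over columns as a black bar, ordered by mean in blastocysts (left) and ES cells (right). Dnmt3b and Dnmt3l lead in blastocysts and Dnmt3l in ES cells, with Tet3 last in both.

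The wider pathway was read from 6 lists of 58 genes, comprising partners of maintenance and de novo methylation, TET partners, base excision repair, methyl-CpG readers and methyl donor supply. The tables tested 56 of them (blastocysts) and 53 (ES cells), and 0 were called in either (backgrounds 0.0986% and 0.261%). At an unadjusted p-value under 0.05, blastocysts had 0 positive and 4 negative genes, 7.14% of those tested against a background of 6.21%. ES cells had 1 positive and 2 negative, 5.66% against 5.62%. Median log2 fold changes in the authors' deposited tables were −0.15 and −0.11, beside −0.04 and 0.00 over all tested genes.

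The 4 blastocyst genes came from 3 lists. Pcna, the sliding clamp at the replication fork, had 312, 130 and 128 reads in the positive columns and 504, 246 and 320 in the negative columns. Its log2 fold change in the authors' deposited table was −1.06 (standard error 0.42, adjusted p = 0.610). Parp1, a sensor of DNA strand breaks, had 1406, 888 and 554 reads against 3056, 886 and 1244, and −0.88 in the authors' deposited table (adjusted p = 0.537). Nanog had 276, 64 and 8 reads against 838, 166 and 230, and −1.93 (adjusted p = 0.546) in the authors' deposited table. Neil3, a DNA glycosylase, had no reads in any positive column and 0, 22 and 8 in the negative columns, too few for a stable fold. Columns of the sides overlapped for Neil3, Nanog and Parp1, and those of Pcna lay apart, as for 9.94% of all solved genes.

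In ES cells the positive gene was Uhrf2, the paralogue of Uhrf1, with 289 and 168 reads in the positive columns and 132 and 142 in the negative columns. The authors' deposited table gives Uhrf2 a log2 fold change of 0.65 (standard error 0.25, adjusted p = 0.481). The negative genes were Kdm2b, a CpG-island binding demethylase (119 and 64 reads against 190 and 170), and Idh2, a mitochondrial isocitrate dehydrogenase that makes the TET cosubstrate (274 and 132 against 382 and 346). Their log2 fold changes in the authors' deposited table were −0.75 and −0.70, with adjusted p-values of 0.356 and 0.294. The normalised reads of all 3 genes lay apart between the sides, as did those of 40.3% of all solved genes. These genes were picked by their p-values, so the separation adds no support.

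Germline genes that promoter methylation is known to keep silent in other cells were read as a further list. Of 15 such genes, 10 were tested in each table, and 0 were called in either (backgrounds 0.0986% and 0.261%). In blastocysts 2 were positive and 8 negative, with a median log2 fold change of −1.25 in the authors' deposited table beside −0.04 over all genes. The 3 genes with 0 reads in all positive columns lie below the median at their fitted values and also at the ratio that 3 reads over those columns would give, so the median is −1.25 either way and says nothing of their size. Most of the 10 genes had few reads. Of the 10, 2 had an unadjusted p-value under 0.05 (20.0%, background 6.21%), the meiotic axis gene Sycp3 (0, 0 and 0 reads against 44, 9 and 10) and the piRNA pathway gene Mael (0, 2 and 0 against 18, 0 and 50). Their adjusted p-values in the authors' deposited table were 0.385 and 0.612. In ES cells the median was −0.14, and 1 positive and 1 negative gene of 10 had an unadjusted p-value under 0.05 (20.0%, background 5.62%). Ddx4, a germ cell RNA helicase, was the positive one (32 and 13 reads against 6 and 7, adjusted p = 0.857 in the authors' deposited table). Hormad1, a meiotic chromosome axis gene, was the negative one (34 and 30 reads against 70 and 79, adjusted p = 0.671 in the authors' deposited table).

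**Figure D5:**
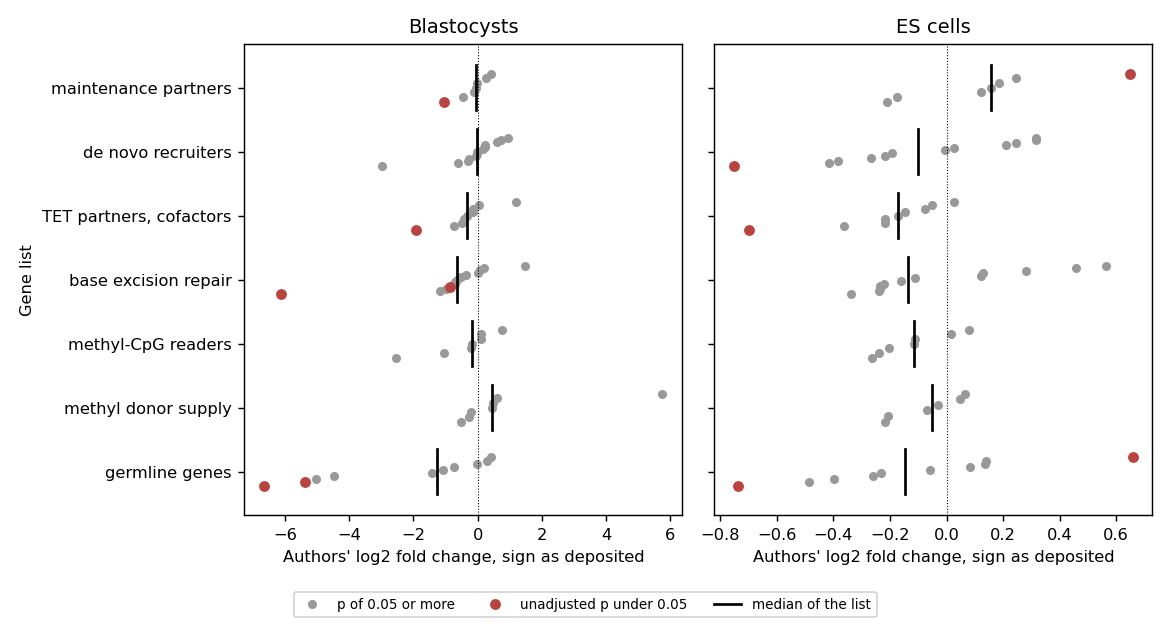
Authors' log2 fold change of every tested gene of the 6 pathway lists and of the germline genes, with list medians as black bars and genes with an unadjusted p-value under 0.05 in red, in blastocysts (left) and ES cells (right, narrower axis). Red points are 6 in blastocysts, all negative, and 5 in ES cells, 2 of them positive.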

How the data were processed

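Both deposited tables hold results of the authors' comparison by DESeq2 1.34.0, per the submitters' processing notes, which also name STAR 2.4.0b, featureCounts from Subread 2.0.1 and the build GRCm38. Per the file headers, the signal column is the authors' mean of normalised counts, the log2 columns are the authors' fold change and its standard error, the score column holds the authors' Wald statistics, and the p-value columns are the authors' p-value and adjusted p-value.

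Reads per count column were solved from the mean, with the fold change and standard error separating candidates by the refitted negative binomial model. Solutions were found for 14478 of 14481 blastocyst and 10711 of 10712 ES cell genes searched. In blastocysts, genes outside the lists were searched only up to a mean of 700, so shares over all solved genes lack higher ones. On simulated data with a fold of 2.00, reads of 200 of 200 genes per table were solved exactly. The simulation used the same model as the solving. It was drawn from genes with lower means than some members, such as Dnmt3b in blastocysts (1668) and Tet1 in ES cells (1517), so it does not cover those. ES cell fold changes were given back with a normal prior of SD 0.664 on the log2 scale. Reads were amplified and carry no molecular identifiers, so error judged from the recovered numbers alone may be too small.

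Members were named whatever their values, as was Dis3l, and other listed genes where the unadjusted p-value was under 0.05. Members and lists were chosen with earlier results of these data known. A pathway gene is not reported here and was taken out of its list and all list counts. Alternatives were a stricter threshold, other adjustments, a minimum mean of 50, rescaled statistics, read ratios and leaving out columns. Python 3.11.15, scipy 1.17.1 and numba 0.67.0 were used.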

Additional observations from a re-analysis of the deposited data

How the results depend on the processing

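The count of members called was 0 in blastocysts under every alternative: an adjusted p-value under 0.01, adjustment over every gene with a p-value, a mean of at least 50, rescaled statistics and an unadjusted p-value under 0.05. In ES cells it was 0 under the first 4 and 1, Dnmt3l, at the unadjusted p-value, but the minimum mean of 50 left only 7 members there, without Dnmt3a, Tdg and Tet3. Recomputed adjusted p-values of members ran from 0.846 to 1.00 in blastocysts and from 0.388 to 1.00 in ES cells. The log2 ratio of recovered reads had the deposited sign for 10 of 10 members in both tables. In blastocysts the members' reads were solved with the deposited fold change, so that result was fixed in advance. The sides were also named by the sign of the fold changes in both tables. Leaving out each count column in turn changed the sign in 11 of 60 values over 6 members in blastocysts (Uhrf1, Dnmt3a, Dnmt3l, Tet1, Tet2 and Tdg) and in 6 of 40 values over 5 members in ES cells (Dnmt1, Uhrf1, Dnmt3b, Tet2 and Zfp57). Of these values, 3 and 13 lay more than 1 standard error from the authors' fold change, among them Tdg in blastocysts (−1.51 without positive-side column 1). In ES cells that distance also includes the shrinkage of the authors' fold changes, so the 13 are not all due to the column left out. Dnmt3l in ES cells stayed between −0.66 and −0.45, while Dnmt3b there went from 0.55 to −0.31 without positive-side column 2. No paired analysis was possible because the count columns carry no replicate numbers. Standard errors of 0.28 to 0.76 on the log2 scale limit what could be seen in blastocysts, and ES cell values rest on 4 columns although 6 samples are labelled.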

Other observations

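Blastocyst reads of the members were even numbers in nearly all columns, with Dnmt3b (2679, 1139 and 1489) and Uhrf1 (301) holding the odd values.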
